A study of Mus musculus with 12 samples.

Results

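The genes described here are Nectin3, Spock1, Cpne4, Prkcd, Nptx1, Bok, Coch and Iyd, 8 genes used as markers of the pyramidal neurons of hippocampal CA3, and they were taken by symbol from a table of unique molecular identifier (UMI) counts. Each symbol had 1 row, so that all 8 members were found among 32546 genes. The table came from photo-isolation chemistry (PIC), in which a caged reverse transcription primer is hybridized to a tissue section and light is projected on a chosen region, so that the cDNA of that region alone can enter the library. CA1, CA3 and the dentate gyrus (DG) of adult mice were irradiated in 4 histological conditions, with 4 replicates for each region and condition and 48 replicates in all.

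All sections came from male ICR mice aged 8 weeks. In the first condition fresh-frozen sections were permeabilized with 0.1 N HCl for 5 min (HCl sections). In the second, fresh-frozen sections were permeabilized with TE at 70 °C for 1 h (TE sections). In the other two, tissue fixed with 4% PFA was cut frozen (fixed frozen sections) or after embedding in paraffin (paraffin sections), and both were permeabilized with TE. Sample titles and the paper use the name CA3, while the description of the series names CA2, and CA3 was used here. Barcodes told the 4 replicates of each region and condition apart, and these were pooled in 1 of 12 libraries, so that within a condition library and region cannot be told apart, and between conditions each region has 1 library per condition. The study calls the replicates biological, but which mouse gave which replicate is not stated, and p-values measure the spread between these replicates. An irradiated region holds all cells of the tissue there, and fewer cells of a type and less RNA per cell cannot be told apart in such bulk values.

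CA3 pyramidal neurons receive the mossy fibres of the DG granule cells, excite each other through recurrent collaterals and send the Schaffer collaterals to CA1. The trisynaptic path thus runs from DG through CA3 to CA1, and the principal neurons of each station carry their own set of surface and signalling molecules. Nectin3 is an immunoglobulin-like cell adhesion molecule of the nectin family, Spock1 encodes testican-1, a secreted proteoglycan, and Nptx1 encodes neuronal pentraxin 1, which is secreted at excitatory synapses and binds AMPA receptors. Cpne4 is a copine, a protein that binds membranes in the presence of calcium, and Prkcd encodes protein kinase C delta. Bok is a BCL-2 family member, Coch encodes cochlin, an extracellular matrix protein best known from the inner ear, and Iyd encodes iodotyrosine deiodinase, which recovers iodide in the thyroid.

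The total of a replicate ranged from 35932 to 1111804 UMIs. Median totals were 731106, 629964, 122520 and 67528 UMIs for HCl, TE, fixed frozen and paraffin sections. Levels are given as CPM, the UMIs of a gene divided by all UMIs of its replicate and scaled to a total of 1000000. They were not divided by gene length, so levels are compared between samples and not between genes. Marker lists, chosen with earlier results of these data known, were set beside the region labels. The 7 CA1 genes summed to 756.5 to 1544 CPM in CA1, 180 to 299 CPM in CA3 and 155 to 400.2 CPM in DG of HCl sections, and the 7 DG granule cell genes summed to 1388 to 2106 CPM in DG and 220.2 to 583 CPM in CA3. The 8 members summed to 1776 to 2268 CPM in CA3, 1045 to 1419 CPM in DG and 475 to 732 CPM in CA1 of these sections, without overlap, and CA3 had the highest sums in each of the other conditions too. As the members are the genes described here, their sums are no check of the CA3 label. The 6 CA2 genes summed to 304 to 388 CPM in CA3, 445 to 712 CPM in DG and 299 to 751 CPM in CA1 of HCl sections. Pcp4 of that list had means of 228 CPM in CA3, 396 CPM in DG and 215 CPM in CA1, and Map3k15 had at most 2 UMIs in any region and condition. In TE sections Amigo2, Rgs14 and Cacng5 of that list had their highest mean in CA3, with 49.5, 52.1 and 30.7 CPM against 32.9, 50.9 and 19.2 CPM in CA1 and 29.3, 30.5 and 21.7 CPM in DG. The 6 CA2 genes together were highest in DG there too, with 511.7 to 675.8 CPM against 344.2 to 469.0 CPM in CA3 and 248.5 to 456.5 CPM in CA1. Of 3 genes of the mossy cells, which lie in the hilus of DG, Drd2 had no UMI in DG of HCl sections, and their sum was 37.7 to 90.8 CPM in DG, 26.0 to 39.5 CPM in CA3 and 7.86 to 13.1 CPM in CA1. The part of other cells in the levels of the members in DG was not tested.

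**Figure D1:**
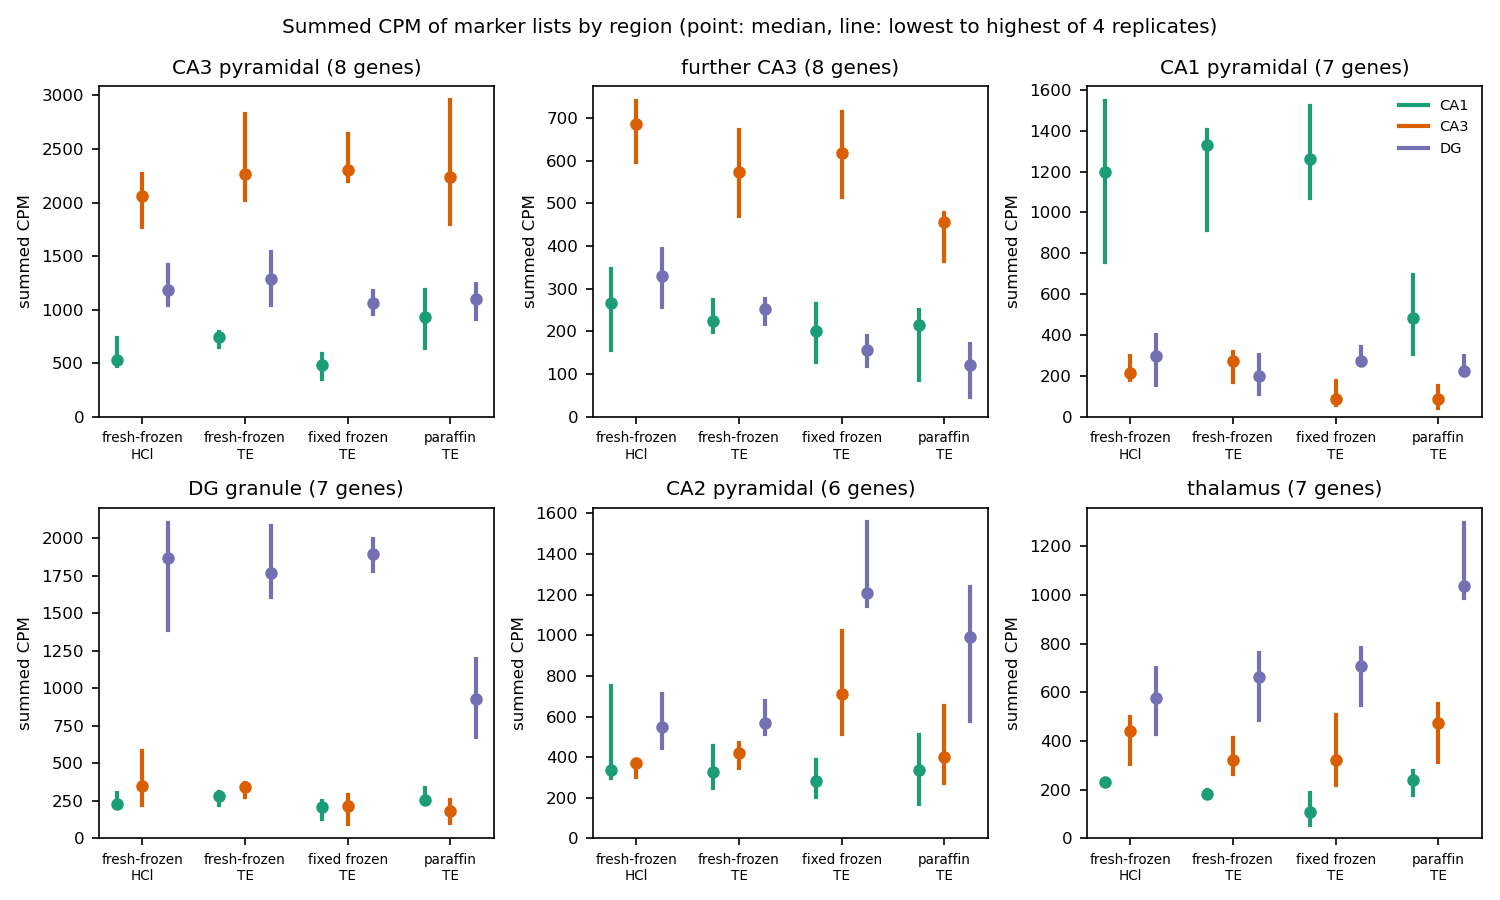
Summed level of 6 marker gene lists (y axis, CPM) in CA1, CA3 and DG and in the 4 histological conditions, with the median of 4 replicates as a point and their lowest and highest values as a line. The 8 CA3 members lie highest in CA3 in each condition (1776 to 2268 CPM in HCl sections), with DG (1045 to 1419 CPM) above CA1 (475 to 732 CPM) there, while DG and CA1 overlap in paraffin sections.

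The 8 genes lie on 8 chromosomes of GRCm38, with positions as in GENCODE M21. Nectin3 spans 46387706 to 46498525 on the minus strand of chromosome 16, Spock1 57421195 to 57908332 on the minus strand of chromosome 13 and Cpne4 104547286 to 105034544 on the plus strand of chromosome 9. Bok spans 93685660 to 93695764 on the plus strand of chromosome 1, Prkcd 30595354 to 30626210 on the minus strand of chromosome 14 and Nptx1 119538719 to 119547753 on the minus strand of chromosome 11. Coch spans 51593341 to 51605771 on the plus strand of chromosome 12, and Iyd 3540240 to 3554877 on the plus strand of chromosome 10. All 8 are protein-coding, and none of their exons overlaps an exon of another gene in that annotation.

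The promoters of Nectin3, Spock1, Cpne4 and Bok are shown because these 4 members were higher in CA3 than in DG in all 3 kinds of frozen section. They are from RefSeq (GRCm38.p6), run from 250 bases before to 50 bases after the start and are printed 5′ to 3′ on the strand of the gene, with each GC box (GGGCGG on either strand) in capitals. They lie at chr16:46496918-46497217 (minus strand) for Nectin3, chr13:57908283-57908582 (minus strand) for Spock1, chr9:104569405-104569704 (plus strand, the first of 2 starts) for Cpne4 and chr1:93685325-93685624 (plus strand) for Bok.
Nectin3: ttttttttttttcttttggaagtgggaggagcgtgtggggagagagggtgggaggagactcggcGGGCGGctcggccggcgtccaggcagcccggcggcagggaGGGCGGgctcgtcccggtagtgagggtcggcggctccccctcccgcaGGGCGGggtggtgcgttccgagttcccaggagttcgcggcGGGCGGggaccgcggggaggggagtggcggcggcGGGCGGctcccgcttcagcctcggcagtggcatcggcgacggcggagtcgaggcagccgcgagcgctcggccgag
Spock1: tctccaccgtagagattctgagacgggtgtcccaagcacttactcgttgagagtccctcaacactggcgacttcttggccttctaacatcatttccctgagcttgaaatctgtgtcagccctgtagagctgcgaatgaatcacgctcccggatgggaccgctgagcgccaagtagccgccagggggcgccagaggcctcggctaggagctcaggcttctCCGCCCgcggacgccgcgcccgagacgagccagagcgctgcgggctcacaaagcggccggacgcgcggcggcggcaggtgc
Cpne4: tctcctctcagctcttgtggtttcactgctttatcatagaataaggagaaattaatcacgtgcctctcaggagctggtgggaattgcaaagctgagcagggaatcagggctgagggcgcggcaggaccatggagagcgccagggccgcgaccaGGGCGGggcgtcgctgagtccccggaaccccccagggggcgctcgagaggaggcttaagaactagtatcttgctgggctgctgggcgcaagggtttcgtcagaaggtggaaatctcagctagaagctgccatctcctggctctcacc
Bok: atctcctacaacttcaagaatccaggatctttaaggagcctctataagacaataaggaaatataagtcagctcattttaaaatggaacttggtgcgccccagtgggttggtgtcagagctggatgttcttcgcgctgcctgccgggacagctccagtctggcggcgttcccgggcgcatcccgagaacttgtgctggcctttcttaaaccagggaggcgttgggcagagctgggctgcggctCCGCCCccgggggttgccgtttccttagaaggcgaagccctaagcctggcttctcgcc
Nectin3 had 5 GC boxes in this window, and Spock1, Cpne4 and Bok had 1 each. Of the members not shown, Coch had 3, the first start of Prkcd had 4, and Iyd had 0. RefSeq promoters were found for 7 of the 8 members, with 9 starts in all, and Nptx1 was not matched. A GC box was present in 6 of the 9 and in 35.66% of the 32851 promoters of the table. The E-box CANNTG was present in 6 of the 9 and in 72.31% of all promoters, TATAAA in 3 of the 9 and in 13.62% of all, and the cyclic AMP response element TGACGTCA in 0 of the 9 and in 1.79% of all. Its shorter form TGACG, which lies inside TGACGTCA, was present in 2 of the 9 and in 20.81% of all promoters. No other of these motifs contains another, and each was searched on both strands.

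The first comparison asked whether the members were higher in CA3 than in DG. Nectin3, Spock1, Cpne4 and Bok were higher in CA3 in HCl, TE and fixed frozen sections, by 2.06-fold (Cpne4 in TE sections) to 9.43-fold (Bok in HCl sections). Nptx1 was 1.43-fold higher in TE and 1.64-fold higher in fixed frozen sections, and Prkcd 1.71-fold higher in HCl sections. Spock1, Cpne4 and Nptx1 were higher in paraffin sections, by 1.97-fold, 2.25-fold and 2.15-fold. In edgeR's quasi-likelihood test with Benjamini-Hochberg adjustment over all genes, 5 of 8, 5 of 8, 5 of 6 and 3 of 6 tested members were higher in CA3 in HCl, TE, fixed frozen and paraffin sections, and 0 were lower. Members with fewer than 10 UMIs over the 8 replicates were not tested. Among all genes tested, 4.46%, 4.35%, 4.29% and 1.93% were higher in CA3 in these 4 conditions. The median log2 fold change of the tested members was 0.94, 1.18, 1.45 and 1.10, beside 0.02, 0.03, -0.09 and -0.06 over all genes. When all replicates were thinned to 35932 UMIs in 1 random draw, 2, 1, 3 and 2 members were still higher in HCl, TE, fixed frozen and paraffin sections. The share of all genes called at this depth is not given here.

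The second comparison set CA3 against CA1, with the same CA3 replicates, so that both comparisons share them. Nectin3, Spock1, Cpne4, Prkcd, Nptx1 and Bok were higher in CA3 than in CA1 in HCl, TE and fixed frozen sections, by 2.03-fold (Spock1 in TE sections) to 18.8-fold (Prkcd in TE sections), and Prkcd in fixed frozen sections had no UMI in CA1. In paraffin sections Cpne4, Prkcd and Nptx1 were higher, by 7.46-fold, 7.29-fold and 2.03-fold. These are 6 of 7, 6 of 8, 6 of 6 and 3 of 6 tested members, and 0 were lower. The shares of all genes that were higher in CA3 were 5.06%, 2.41%, 3.86% and 1.72%. Median log2 fold changes of the members were 2.19, 2.01, 2.68 and 1.66, and those of all genes 0.01, 0.01, 0.00 and 0.04. With Iyd, which had no UMI in CA1, set at its ratio to a level of 3 UMIs there, the median in TE sections was 1.88. Thinning to 35932 UMIs left 3, 3, 5 and 3 members higher in HCl, TE, fixed frozen and paraffin sections.

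The third comparison set CA1 against DG and shares its replicates with the other two. Nptx1, Prkcd and Nectin3 were lower in CA1 than in DG in HCl sections, these 3 and Cpne4 in TE sections, and Nptx1, Prkcd, Cpne4 and Spock1 in fixed frozen sections. Cpne4 was lower in paraffin sections. These are 3 of 7, 4 of 7, 4 of 6 and 1 of 6 tested members, and 0 were higher in CA1. Lower values in CA1 were called for 8.35%, 4.99%, 4.78% and 2.42% of all genes. The members had a median log2 fold change of -0.74, -1.05, -1.03 and -0.78, where that of all genes was 0.03, 0.01, -0.11 and -0.18. For the members called here the order of mean levels was CA3, DG, CA1. After thinning, 1, 2, 3 and 0 members were lower in HCl, TE, fixed frozen and paraffin sections.

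**Figure D2:**
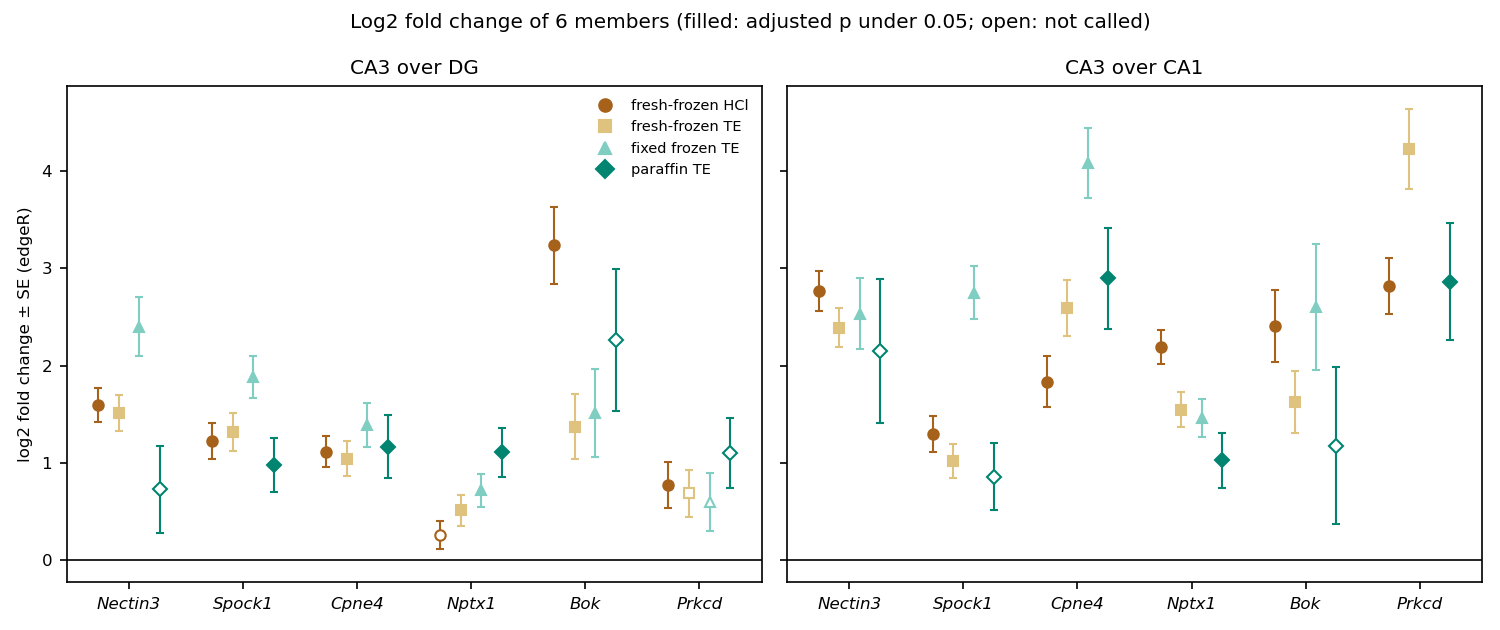
Log2 fold change (y axis) of 6 members (x axis) in CA3 over DG and in CA3 over CA1, in the 4 histological conditions. Bars are standard errors derived from the F statistic of the test, and points are filled where the adjusted p was under 0.05. Prkcd in fixed frozen sections is left out over CA1, where it had no UMI. Nectin3, Spock1, Cpne4 and Bok lie above 0 with filled points over DG in the 3 kinds of frozen section, and Nptx1 over DG runs from 0.26 in HCl to 1.11 in paraffin sections.

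The adhesion molecule Nectin3 was higher in CA3 than in DG and than in CA1 in all 3 frozen conditions. In replicates 1 to 4 of HCl sections it was at 238, 239.9, 319.7 and 252 CPM in CA3, 105, 74.5, 97.7 and 75.4 CPM in DG and 41.0, 42.6, 42.6 and 15.7 CPM in CA1. Nectin3 in TE sections was at 312, 284, 318 and 424 CPM in CA3, 159, 97.1, 116 and 112 CPM in DG and 60.9, 79.8, 71.6 and 37.8 CPM in CA1. All CA3 replicates lay above all DG replicates, and all DG replicates above all CA1 replicates, in both conditions. In fixed frozen sections Nectin3 was at 387, 240.0, 204 and 114 CPM in CA3, 67.1, 52.1, 41.2 and 18.4 CPM in DG and 43.5, 49.8, 34.1 and 36.9 CPM in CA1. CA3 replicate 1 was the highest there and replicate 4 the lowest, and DG and CA1 overlapped. Nectin3 in paraffin sections was at 66.2, 121, 83.7 and 100.2 CPM in CA3, 67.8, 53.4, 49.3 and 62.2 CPM in DG and 0, 54.0, 14.1 and 0 CPM in CA1. CA3 and DG overlapped in paraffin sections, CA3 lay above CA1, and CA1 replicates 1 and 4 had no UMI. The log2 fold change of CA3 over DG with its standard error was 1.59 ± 0.17, 1.52 ± 0.19 and 2.40 ± 0.30 (adjusted p = 8.6e-07, 1.32e-06 and 4.39e-13) in HCl, TE and fixed frozen sections, and 0.72 ± 0.44 (adjusted p = 0.477) in paraffin sections. Over CA1 the log2 fold change was 2.77 ± 0.20, 2.39 ± 0.20 and 2.53 ± 0.36 (adjusted p = 2.02e-11, 3.33e-09 and 1.18e-09) in the frozen conditions, and 2.15 ± 0.74 (adjusted p = 0.103) in paraffin sections, where it was 3.51 (adjusted p = 0.042) without CA1 replicate 2 and between 0.042 and 0.342 in adjusted p over 13 alternatives. CA1 over DG had a log2 fold change of -1.16 ± 0.25 and -0.88 ± 0.21 (adjusted p = 0.000671 and 0.00371) in HCl and TE sections. In fixed frozen sections the log2 difference was -0.17 ± 0.48 (adjusted p = 0.913), and in paraffin sections -1.55 ± 0.73 (adjusted p = 0.285).

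The proteoglycan gene Spock1 was higher in CA3 than in DG in all 4 conditions, and higher than in CA1 in the frozen ones. HCl sections had Spock1 at 605, 433, 491 and 662 CPM in CA3, 289.5, 152, 226 and 318 CPM in DG and 298, 170.5, 189.8 and 291 CPM in CA1. TE sections had it at 601, 488, 465 and 731 CPM in CA3, 297, 138, 238 and 292 CPM in DG and 317, 203, 312 and 310.3 CPM in CA1. The ranges of DG and CA1 overlapped in both, and every CA3 replicate lay above them. In fixed frozen sections Spock1 was at 611, 508, 532 and 530.3 CPM in CA3, 209, 87.9, 136 and 211 CPM in DG and 29.0, 94.0, 102 and 73.8 CPM in CA1. All CA3 replicates lay within the range of TE sections there, and CA1 lay at or under 102 CPM. In paraffin sections it was at 422, 282, 335 and 576 CPM in CA3, 230.5, 133, 247 and 187 CPM in DG and 213, 180.0, 297 and 139 CPM in CA1. CA3 lay above DG in all 4 replicates, and CA1 replicate 3 reached above CA3 replicate 2. The log2 fold change of CA3 over DG was 1.22 ± 0.19, 1.32 ± 0.20, 1.88 ± 0.21 and 0.97 ± 0.28 (adjusted p = 7.67e-05, 3.34e-05, 6.18e-16 and 0.0316) in HCl, TE, fixed frozen and paraffin sections. The call in paraffin sections was lost without CA3 replicate 1 or 4 or without any 1 of the DG replicates (adjusted p = 0.052 to 0.207), and with DESeq2 (0.0756) and no filter on low counts (0.106). Over CA1 the log2 fold change was 1.30 ± 0.18, 1.02 ± 0.18, 2.75 ± 0.27 and 0.85 ± 0.34 (adjusted p = 7.56e-06, 0.000367, 2.37e-20 and 0.217) in the same order, so that paraffin sections did not pass the test. CA1 over DG had a log2 fold change of -0.06 ± 0.21 (adjusted p = 0.894) in HCl, 0.29 ± 0.19 (adjusted p = 0.419) in TE and 0.03 ± 0.31 (adjusted p = 0.982) in paraffin sections, none of which passed. In fixed frozen sections it was -0.91 ± 0.31 (adjusted p = 0.0488). That call held in 1 of 15 alternatives, without DG replicate 2 (adjusted p = 0.0111), and in the others the adjusted p reached 0.961.

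The copine gene Cpne4 was higher in CA3 than in both DG and CA1 in all 4 conditions. HCl sections had Cpne4 at 420.3, 344, 321 and 375 CPM in CA3, 187, 129, 197 and 180.0 CPM in DG and 213, 52.5, 58.7 and 86.4 CPM in CA1. TE sections had it at 549.7, 490.2, 421 and 535 CPM in CA3, 349.7, 165, 247 and 248 CPM in DG and 65.5, 34.6, 186 and 35.1 CPM in CA1. CA3 lay above both other regions, and CA1 had 1 replicate far above the others in each condition, replicate 1 in HCl sections and replicate 3 in TE sections. The same replicates had the highest summed level of the CA2 list in CA1, 751 CPM against 299 to 354 CPM in HCl sections and 456.5 CPM against 248.5 to 373 CPM in TE sections. Amigo2, a CA2 marker, was at 116 CPM in that HCl replicate and 11.5 to 31.4 CPM in the others, and at 79.7 CPM in that TE replicate and 8.10 to 24.1 CPM in the others. Whether CA2 cells had a part in these Cpne4 values was not tested. Fixed frozen sections had Cpne4 at 438, 374, 399 and 454 CPM in CA3, 179, 130.2, 140.2 and 211 CPM in DG and 29.0, 22.1, 34.1 and 0 CPM in CA1. In paraffin sections it was at 306, 262, 146 and 351 CPM in CA3, 156, 142, 89.7 and 109 CPM in DG and 42.7, 54.0, 0 and 55.7 CPM in CA1. Fixed frozen sections showed no overlap of the 3 regions, and in paraffin sections CA3 replicate 3 fell below DG replicate 1.

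For Cpne4 the log2 fold change of CA3 over DG was 1.11 ± 0.16, 1.04 ± 0.18, 1.39 ± 0.22 and 1.17 ± 0.32 (adjusted p = 3.95e-05, 0.000209, 4.9e-08 and 0.022) in HCl, TE, fixed frozen and paraffin sections. In paraffin sections the call was lost without CA3 replicate 1, 2 or 4 or DG replicate 2, 3 or 4 (adjusted p = 0.0575 to 0.161), and with DESeq2 (0.0787), no filter on low counts (0.0595) and thinning (0.373). Over CA1 the log2 fold change was 1.83 ± 0.26, 2.59 ± 0.29, 4.09 ± 0.36 and 2.90 ± 0.52 (adjusted p = 1.1e-05, 6.14e-07, 3.67e-24 and 9.04e-06) in that order. With CA1 replicate 1 left out, the HCl value was 2.64 (adjusted p = 2.94e-10), and with CA1 replicate 3 left out, the TE value was 3.40 (adjusted p = 2.78e-10). CA1 over DG had a log2 fold change of -1.56 ± 0.29, -2.74 ± 0.41 and -1.86 ± 0.53 (adjusted p = 0.000146, 3.2e-09 and 0.0199) in TE, fixed frozen and paraffin sections. Without CA1 replicate 3 the TE value was -2.37 (adjusted p = 4.12e-09), and with DESeq2 its adjusted p was 0.0698. The paraffin value was lost without CA1 replicate 3 (-1.27, adjusted p = 0.234), DG replicate 1 or DG replicate 2, and with DESeq2 (adjusted p = 0.15) and thinning (0.0816). In HCl sections the difference between CA1 and DG was -0.70 ± 0.27 (adjusted p = 0.0695), which did not pass. Leaving out CA1 replicate 1 gave -1.52 (adjusted p = 7.42e-06), and leaving out DG replicate 2 gave -0.84 (adjusted p = 0.0334). It also passed with no filter (adjusted p = 0.0124).

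The kinase gene Prkcd was higher in CA3 than in CA1 in all 4 conditions, and over DG it passed the test in HCl sections. HCl sections had Prkcd at 66.5, 98.5, 97.5 and 94.4 CPM in CA3, 88.0, 41.9, 48.2 and 37.7 CPM in DG and 19.1, 13.1, 6.90 and 15.7 CPM in CA1. TE sections had it at 47.2, 58.5, 61.1 and 70.3 CPM in CA3, 24.4, 35.8, 41.9 and 54.3 CPM in DG and 5.74, 4.52, 0 and 0 CPM in CA1. CA1 lay below both other regions, and CA3 and DG overlapped, with DG replicate 1 in the CA3 range in HCl sections. In fixed frozen sections Prkcd was at 102, 162, 117 and 208 CPM in CA3 and 96.9, 111, 57.8 and 119 CPM in DG, and no UMI of it was counted in CA1. The CA1 library allows a level of up to 7.12 CPM (3 UMIs over its 4 replicates, counting error only). Against that level CA3, with 140.3 CPM over its 59 pooled UMIs, was 19.7-fold higher. DG, with 74 UMIs, was 13.1-fold higher. These ratios leave out the counting error of the CA3 and DG UMIs. In paraffin sections it was at 174, 161, 188 and 251 CPM in CA3, 88.1, 53.4, 139 and 31.1 CPM in DG and 0, 0, 42.4 and 55.7 CPM in CA1. Every CA3 replicate lay above every DG and CA1 replicate there.

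Over CA1, Prkcd had a log2 fold change of 2.82 ± 0.29, 4.23 ± 0.41 and 2.87 ± 0.60 (adjusted p = 2.56e-08, 5.01e-08 and 0.000335) in HCl, TE and paraffin sections, and an adjusted p of 8.63e-13 in fixed frozen sections. The value was 5.00 without CA1 replicate 1 in TE sections and 3.51 without CA1 replicate 3 in paraffin sections. CA1 over DG had a log2 fold change of -2.02 ± 0.36 and -3.55 ± 0.48 (adjusted p = 5.78e-05 and 1.06e-06) in HCl and TE sections, with -4.29 without CA1 replicate 1 in TE sections, and fixed frozen sections gave an adjusted p of 8.43e-11. In paraffin sections the log2 difference was -1.90 ± 0.62 (adjusted p = 0.0593). CA3 over DG had a log2 fold change of 0.77 ± 0.24 (adjusted p = 0.0407) in HCl sections, and the call was lost without CA3 replicate 2, 3 or 4, without DG replicate 2, 3 or 4 (adjusted p = 0.0734 to 0.153) and with DESeq2 (adjusted p = 0.063). In TE, fixed frozen and paraffin sections it was 0.68 ± 0.24, 0.60 ± 0.30 and 1.10 ± 0.36 (adjusted p = 0.0862, 0.236 and 0.0708), none of which passed. Same-numbered replicates deviated together in TE sections, and with the replicate number as a block the TE value was 0.68 (adjusted p = 0.0167), beside 0.0167 to 0.99 over 15 alternatives. Without DG replicate 3 the paraffin value was 1.54 (adjusted p = 0.0318), beside 0.0208 to 0.267 over 15 alternatives. A list of 7 thalamus genes, from the tissue that lies under the hippocampus, summed to 427 to 702 CPM in DG, 306 to 497 CPM in CA3 and 225 to 244 CPM in CA1 of HCl sections, and to 989.8 to 1298 CPM, 314 to 551 CPM and 180.0 to 278 CPM in paraffin sections. Its part in the Prkcd levels was not tested.

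The synaptic gene Nptx1 was higher in CA3 than in CA1 in all 4 conditions and higher in CA3 than in DG in all but HCl sections. HCl sections had Nptx1 at 888, 609, 683 and 741 CPM in CA3, 724, 639, 489 and 653 CPM in DG and 137, 192, 194 and 110.0 CPM in CA1. TE sections had it at 924, 689, 726 and 1024 CPM in CA3, 683, 584, 525 and 666 CPM in DG and 306, 318, 212 and 332 CPM in CA1. CA1 was the lowest region in both, and CA3 and DG overlapped in HCl sections but not in TE sections. Fixed frozen sections had Nptx1 at 978, 896, 1041 and 739 CPM in CA3, 566, 638, 557 and 477 CPM in DG and 261, 392, 409 and 239.8 CPM in CA1. In paraffin sections it was at 1497, 947, 1088 and 1629 CPM in CA3, 488, 516, 695 and 762 CPM in DG and 576, 882, 593 and 389.6 CPM in CA1. CA3 was above both other regions in all replicates of both fixed conditions, while DG and CA1 overlapped in paraffin sections alone. With totals scaled by edgeR's TMM factors, CA3 and DG overlapped in fixed frozen sections (means of 907 and 592 CPM, exact permutation p = 0.0571). CA3 over DG had a log2 fold change of 0.26 ± 0.15, 0.51 ± 0.16, 0.72 ± 0.17 and 1.11 ± 0.25 (adjusted p = 0.346, 0.0442, 0.000602 and 0.00254) in HCl, TE, fixed frozen and paraffin sections. The TE call was lost without CA3 replicate 1 or 4 or any 1 of the DG replicates (adjusted p = 0.057 to 0.198) and with DESeq2 (adjusted p = 0.0655), DESeq2 size factors (0.0679) and filterByExpr (0.0696), and the paraffin call was lost without DG replicate 2 (adjusted p = 0.0514). Over CA1 the log2 fold change was 2.19 ± 0.17, 1.55 ± 0.18, 1.46 ± 0.20 and 1.02 ± 0.29 (adjusted p = 7.7e-11, 9.07e-07, 4.41e-11 and 0.0234), and the paraffin call was lost without CA1 replicate 1, 3 or 4 or CA3 replicate 1 (adjusted p = 0.058 to 0.134). CA1 over DG had a log2 fold change of -1.92 ± 0.19, -1.05 ± 0.16 and -0.77 ± 0.20 (adjusted p = 1.98e-10, 7.57e-06 and 0.00237) in the frozen conditions and -0.0015 ± 0.25 (adjusted p = 0.998) in paraffin sections.

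The BCL-2 family gene Bok was low in count, with 131 UMIs in CA3 of HCl sections and 16 in CA3 of paraffin sections. HCl sections had Bok at 39.7, 38.5, 33.3 and 42.4 CPM in CA3, 5.68, 1.55, 3.81 and 8.37 CPM in DG and 9.58, 3.28, 5.75 and 23.6 CPM in CA1. TE sections had it at 28.0, 30.6, 27.9 and 25.4 CPM in CA3, 14.2, 13.6, 8.39 and 6.79 CPM in DG and 10.3, 7.53, 8.10 and 10.8 CPM in CA1. All CA3 replicates lay above all DG and CA1 replicates, and DG and CA1 overlapped. Fixed frozen sections had Bok at 102, 77.6, 39.1 and 114 CPM in CA3, 44.7, 26.1, 16.5 and 27.5 CPM in DG and 43.5, 5.53, 8.53 and 0 CPM in CA1. In paraffin sections it was at 41.4, 30.2, 126 and 50.1 CPM in CA3, 13.6, 8.89, 13.4 and 0 CPM in DG and 0, 18, 56.5 and 0 CPM in CA1. CA3 replicate 3 in fixed frozen sections lay below the highest DG and CA1 replicates, and in paraffin sections CA3 lay above DG but not above CA1 replicate 3. CA3 over DG had a log2 fold change of 3.24 ± 0.40, 1.37 ± 0.34 and 1.51 ± 0.46 (adjusted p = 4.41e-06, 0.00817 and 0.0149) in HCl, TE and fixed frozen sections and 2.26 ± 0.73 (adjusted p = 0.0649) in paraffin sections. The fixed frozen call was lost without CA3 replicate 1 (adjusted p = 0.0914), CA3 replicate 2 (0.052) or DG replicate 3 (0.0735). Over CA1 the log2 fold change was 2.41 ± 0.37, 1.63 ± 0.32 and 2.61 ± 0.65 (adjusted p = 2.82e-05, 0.00145 and 0.00206) in the frozen conditions and 1.18 ± 0.81 (adjusted p = 0.63) in paraffin sections, and without CA1 replicate 1 the fixed frozen value was 3.58 (adjusted p = 0.000274). Bok did not pass the test between CA1 and DG in any condition, with a log2 fold change of 0.86 ± 0.69 (adjusted p = 0.431) in HCl and -0.26 ± 0.45 (adjusted p = 0.812) in TE sections.

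Coch and Iyd were near the detection limit and gave no call between regions. Coch had 27 UMIs in CA3, 20 in DG and 14 in CA1 of HCl sections, and 17, 20 and 10 UMIs in TE sections. In TE sections Coch was at 4.42, 6.30, 4.29 and 5.86 CPM in CA3, 12.2, 8.52, 10.1 and 10.2 CPM in DG and 3.44, 4.52, 4.05 and 2.70 CPM in CA1. Its 4 CA3 replicates lay below its 4 DG replicates there, against the direction of a CA3 marker, on 3 to 7 UMIs per replicate. The log2 fold change was -0.89 ± 0.48 (adjusted p = 0.33). The exact two-sided permutation p was 0.0286, the smallest that 4 against 4 replicates allow. Among all genes with at least 10 UMIs, 6.44% lay below DG without overlap and 5.88% above it. In fixed frozen and paraffin sections Coch had at most 2 UMIs in any region. Iyd had no UMI in CA1 in any condition. Its CA3 libraries held 8, 16, 4 and 0 UMIs and its DG libraries 5, 1, 5 and 2 UMIs in HCl, TE, fixed frozen and paraffin sections. Against the level of 3 UMIs that a count of 0 allows in CA1, Iyd in CA3 was 1.83-fold, 4.36-fold and 1.34-fold higher in HCl, TE and fixed frozen sections. These ratios leave out the counting error of its CA3 UMIs, so they are not lower bounds. In TE sections its adjusted p for CA3 over CA1 in edgeR's test was 0.0572, and 0.00621 with the replicate number as a block, as same-numbered replicates deviated together there. It also passed with no filter (adjusted p = 0.00486) and with DG in the fit (0.0314).

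**Figure D3:**
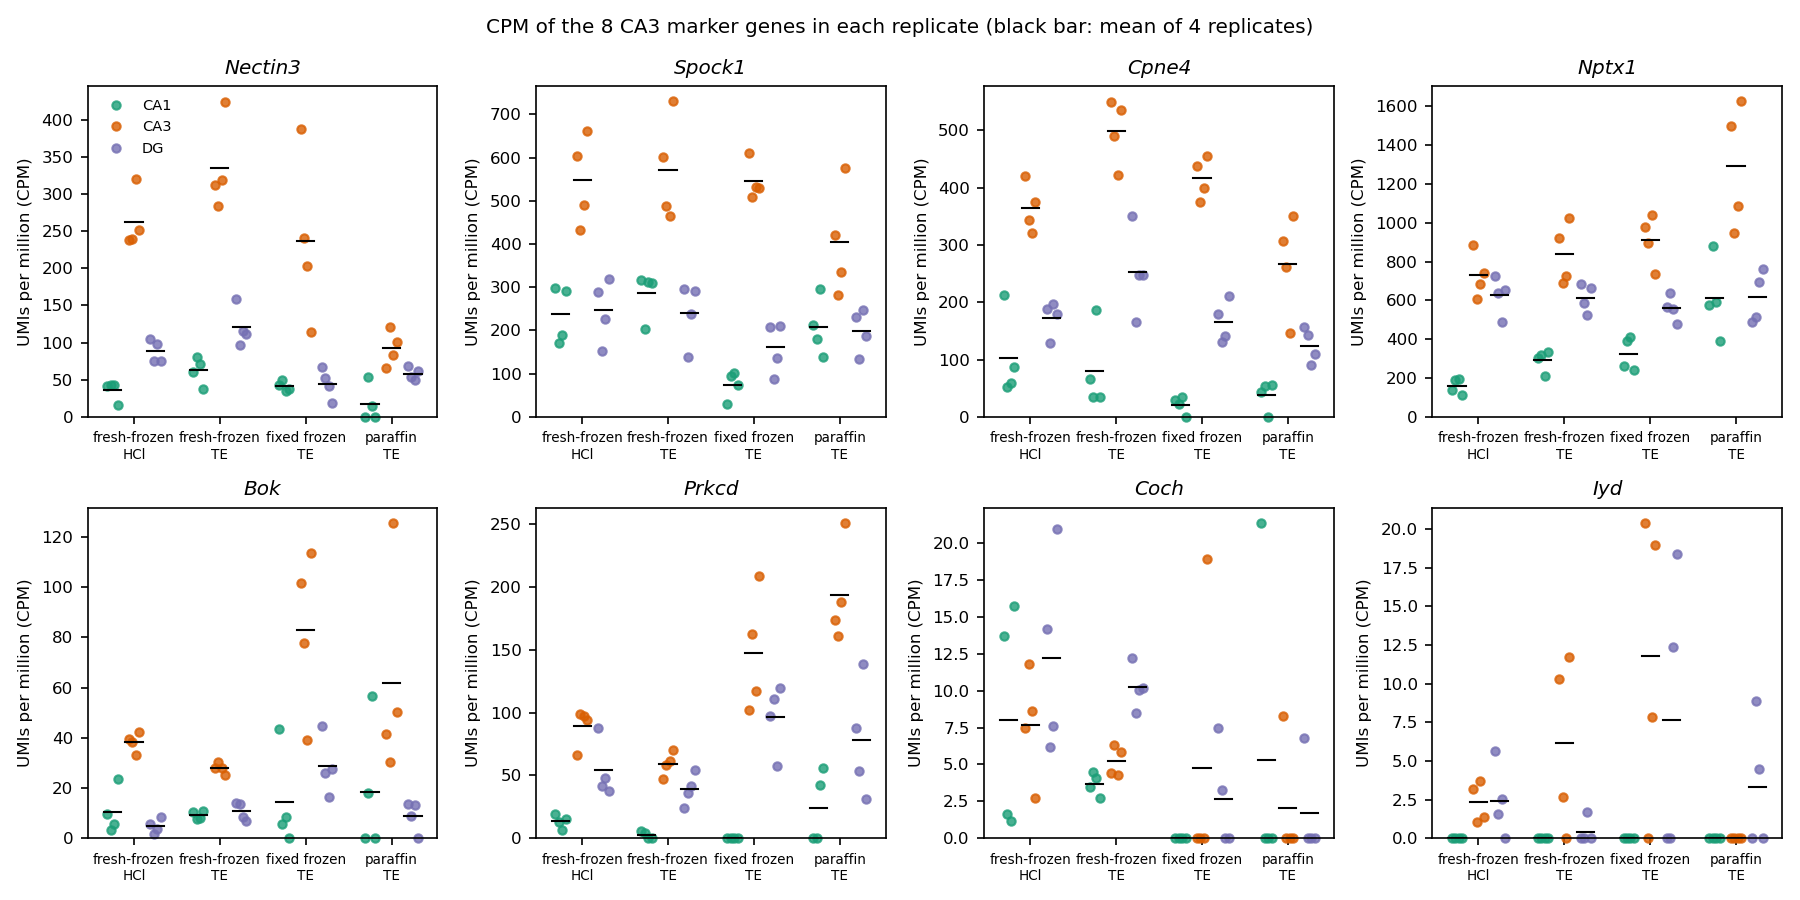
Level of each of the 8 members (y axis, CPM) in every replicate, by histological condition (x axis) and coloured by region, with the mean of 4 replicates as a black bar. Nectin3 in HCl sections sits between 238 and 319.7 CPM in CA3, above 74.5 to 105 CPM in DG and 15.7 to 42.6 CPM in CA1, while Coch and Iyd lie at or below 21.34 CPM in all replicates.

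Levels in CA3 were next set side by side across the histological conditions. Mean levels in CA3 (± SD, n = 4) were 262 ± 38.8, 335 ± 61.3, 236 ± 114 and 92.8 ± 23.4 CPM for Nectin3 in HCl, TE, fixed frozen and paraffin sections. In the same order Spock1 was at 548 ± 104, 572 ± 122, 546 ± 45.1 and 404 ± 129 CPM, and Cpne4 at 365 ± 43.0, 499 ± 57.8, 416 ± 36.5 and 266 ± 87.8 CPM. These 3 were lowest in paraffin sections. Nptx1 was at 730.2 ± 118, 841 ± 159.9, 914 ± 131 and 1290.0 ± 325 CPM, Prkcd at 89.2 ± 15.3, 59.3 ± 9.54, 148 ± 48 and 193 ± 39.7 CPM and Bok at 38.5 ± 3.80, 28.0 ± 2.12, 83.1 ± 32.9 and 61.8 ± 43.2 CPM. The means of these 3 were higher in both fixed conditions than in both fresh-frozen ones. With TMM-scaled totals, however, Nptx1 in CA3 was at 907 CPM in fixed frozen and 942 CPM in TE sections, so that its order there was reversed.

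Fixed and fresh frozen sections, both with TE, were compared over all 24 replicates with region as a covariate. Bok was higher in fixed sections, by a log2 fold change of 1.17 ± 0.27 (adjusted p = 0.000209), as was Prkcd with 1.17 ± 0.21 (adjusted p = 2.43e-06). Spock1 was lower with -0.72 ± 0.15 (adjusted p = 4.56e-05), Nectin3 with -0.81 ± 0.17 (adjusted p = 3.24e-05), Cpne4 with -0.66 ± 0.17 (adjusted p = 0.000778) and Coch with -1.82 ± 0.64 (adjusted p = 0.0141). Nptx1 was at 0.01 ± 0.11 (adjusted p = 0.964), and Iyd at 1.42 ± 0.68 (adjusted p = 0.0759), and neither passed. The 2 higher and 4 lower members of 8 stand beside 15.8% of all genes that were higher and 32.9% that were lower, and the median of all genes was -0.39. Within the CA3 replicates alone, Bok (1.38) and Prkcd (1.19) were still higher, and Spock1 (-0.13, adjusted p = 0.613), Nectin3 (-0.50, adjusted p = 0.0539), Cpne4 (-0.34, adjusted p = 0.156) and Coch (-1.10, adjusted p = 0.569) did not pass. Coch was also lost without replicate 2 (adjusted p = 0.0852) or 3 (0.0844) and with DESeq2 (0.0572).

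HCl and TE permeabilization of fresh-frozen sections were compared in the same way. Prkcd was higher with HCl, by a log2 fold change of 0.57 ± 0.18 (adjusted p = 0.014), and Nectin3 was lower, with a log2 fold change of -0.60 ± 0.12 (adjusted p = 7.42e-05), as was Nptx1, with a log2 fold change of -0.45 ± 0.12 (adjusted p = 0.00183). Among all genes 16.2% were higher and 14.3% lower, with a median of 0.10. The Prkcd call was lost without replicate 1 (0.41, adjusted p = 0.119) or replicate 2 (adjusted p = 0.0568). Within the CA3 replicates alone these 3 did not pass (Prkcd 0.47 with adjusted p = 0.108, Nectin3 -0.48 with 0.0502, Nptx1 -0.33 with 0.177), and Cpne4 was the 1 member that was called. Paraffin and frozen sections of fixed tissue were compared last. Nectin3 was lower in paraffin sections, with a log2 fold change of -0.81 ± 0.26 (adjusted p = 0.0113), and Cpne4 with a log2 fold change of -0.53 ± 0.20 (adjusted p = 0.0334), beside 13.7% of all genes higher and 14.4% lower and a median of 0.05. Nectin3 was lost without replicate 1 (-0.54, adjusted p = 0.207) and with DESeq2 (-0.62, adjusted p = 0.129), and within CA3 alone it was -1.41 (adjusted p = 0.00272). Cpne4 was lost without replicate 3 (-0.31, adjusted p = 0.373) or 4 (adjusted p = 0.083) and within CA3 alone (-0.62, adjusted p = 0.141). It was also lost with DESeq2 (adjusted p = 0.142), DESeq2 size factors (0.138), no filter (0.0649), filterByExpr (0.154) and thinning (0.125). Among 7 such settings it was called in 1 and Nectin3 in 4, with Nectin3 also lost under filterByExpr (adjusted p = 0.0602) and thinning (0.752). Nptx1, at 0.33 ± 0.14 (adjusted p = 0.0734), was instead called higher in paraffin sections with DESeq2 (0.000956), DESeq2 size factors (0.00159), filterByExpr (0.000691) and thinning (0.04). Differences between conditions are also differences between libraries, and these cannot be told apart.

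Whether the region effect itself depended on the condition was tested with an interaction term against TE sections. Spock1 in CA3 over CA1 was the 1 member called, with a log2 fold change that was 1.76 ± 0.33 larger in fixed frozen than in TE sections (adjusted p = 0.000467). Mean levels of Spock1 were 572 ± 122 CPM in CA3 and 286 ± 54.9 CPM in CA1 of TE sections, and 546 ± 45.1 and 74.8 ± 32.8 CPM in fixed frozen sections, so that the CA3 means differed by less than their SD, and all fixed frozen CA1 replicates lay below all TE replicates of CA1. The call was lost without replicate 1 (1.43, adjusted p = 0.0688) and after thinning (1.91, adjusted p = 0.0852), and it held in 9 of 11 alternatives with values of 1.73 to 2.01. Cpne4 in CA3 over CA1 of fixed frozen sections differed by 1.56 ± 0.52 (adjusted p = 0.239), and Bok in CA3 over DG of HCl sections by 1.87 ± 0.56 (adjusted p = 0.392), without passing. For CA3 over DG, edgeR called 0 members in HCl, fixed frozen or paraffin sections against TE sections, 1 of 8 had an unadjusted p under 0.05 in each of the 3 tests, and DESeq2 called 0. For CA3 over CA1, edgeR and DESeq2 called 0 in HCl sections, where 2 members had an unadjusted p under 0.05, and 0 in paraffin sections, where 0 had. In fixed frozen sections both called Spock1 alone, and 3 members had an unadjusted p under 0.05. Member medians for CA3 over CA1 were 0.13, 1.32 and -0.41 in HCl, fixed frozen and paraffin sections. Those of all genes were 0.03, -0.03 and 0.08. Cpne4 was called in HCl sections without replicate 3 (-1.86, adjusted p = 0.0165). Such effects were rare among all genes, with 0.102%, 0.341% and 0.405% called for CA3 over DG and 0.516%, 0.335% and 0.433% for CA3 over CA1 in HCl, fixed frozen and paraffin sections.

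A further list of 8 genes taken as CA3-enriched, Grik4, Homer3, Galnt3, Slc9a4, Rnf182, Nnat, Plagl1 and Kcnq5, was set beside the members. It was chosen with earlier results of these data known and is no independent check. In CA3 over DG, 4, 5, 4 and 1 of them were higher in HCl, TE, fixed frozen and paraffin sections, of 8, 8, 6 and 5 tested, with median log2 fold changes of 0.85, 1.22, 1.98 and 1.83. In CA3 over CA1, 6, 5, 3 and 2 were higher. Plagl1 was at 12.2 CPM in CA3, 12.2 CPM in DG and 13.9 CPM in CA1 of HCl sections. Nnat was at 16.8 CPM in CA3, 17.2 CPM in DG and 4.28 CPM in CA1 there. The fitted values that follow are of the genes called over DG in at least 3 of 4 conditions. Kcnq5, a potassium channel subunit gene, was higher in CA3 than in DG in all 4 conditions, with 2.06 ± 0.27, 1.92 ± 0.27, 2.44 ± 0.32 and 2.28 ± 0.50 (adjusted p = 9.06e-06, 9.51e-06, 6.05e-12 and 0.00164). Its mean was 216 ± 55.7 CPM in CA3, 57.6 ± 28.6 CPM in DG and 106 ± 15.9 CPM in CA1 of HCl sections, with the lowest level in DG. Grik4, a kainate receptor subunit gene, was higher in the frozen conditions, with 1.27 ± 0.21, 1.30 ± 0.25 and 1.86 ± 0.59 (adjusted p = 0.000241, 0.000842 and 0.025), and at 1.61 ± 0.71 (adjusted p = 0.24) in paraffin sections. It had 104 ± 20.6 CPM in CA3, 45.2 ± 6.58 CPM in DG and 12.9 ± 8.72 CPM in CA1 of HCl sections, the order that Nectin3 and Prkcd had. Rnf182, a ubiquitin ligase gene, was higher in the frozen conditions, with 0.58 ± 0.17, 0.90 ± 0.18 and 1.44 ± 0.30 (adjusted p = 0.0266, 0.000992 and 9.42e-05), and at 1.18 ± 0.44 (adjusted p = 0.137) in paraffin sections.

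How alike the members were was described over the 12 means of region and condition, as log2 CPM centred on the mean of each condition. Nectin3, Spock1, Cpne4, Prkcd, Nptx1 and Bok had enough UMIs for this, and Coch and Iyd did not. Between the 15 pairs of these 6 members, Pearson's r ranged from 0.686 (Bok with Nptx1) to 0.984 (Cpne4 with Prkcd), with a median of 0.809. Bok and Spock1 had r = 0.918 with each other. The points share libraries and the same 3 regions, so these values describe the pattern and carry no test.

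Among 9137 other genes, the 10 most like the mean profile of the members were Ogfrl1 (r = 0.994), Trps1 (0.991), Nefl (0.991), Camta1 (0.981), Cd109 (0.978), Ccnd2 (0.978), Nrip3 (0.976), Nptxr (0.974), Unc5c (0.967) and Snap25 (0.964), each over 12 means. Nefl encodes the light neurofilament subunit, Nptxr the neuronal pentraxin receptor, Unc5c a netrin receptor and Snap25 a protein of the synaptic fusion machinery. Ogfrl1 averaged 682 CPM in CA3, 377 CPM in DG and 216 CPM in CA1 over 16 replicates a region. Nptxr averaged 1324 CPM in CA3, 653 CPM in DG and 296 CPM in CA1. With Spearman's rho in place of Pearson's r, 3 of the 10 were shared. For single members, close genes were Ywhah and Lynx1 for Bok (r = 0.985 and 0.954), Acot7 and Mgll for Spock1 (0.960 and 0.957), Ankrd29 and Zmynd8 for Nectin3 (0.983 and 0.972), Trps1 for Cpne4 (0.987), Ak5 and Cpne9 for Prkcd (0.974 and 0.974) and Tmem9 and Cd109 for Nptx1 (0.958 and 0.943). Further genes of these lists were Gpr26 for Bok (0.951), Rnf187 for Spock1 (0.953), Dmxl2 for Nectin3 (0.971), Nos1 for Cpne4 (0.978) and Npy2r for Nptx1 (0.943). For Coch and Iyd, which were not in the mean profile, the closest genes were 2810432F15Rik (0.898) and Lamb1 (0.949).

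**Figure D4:**
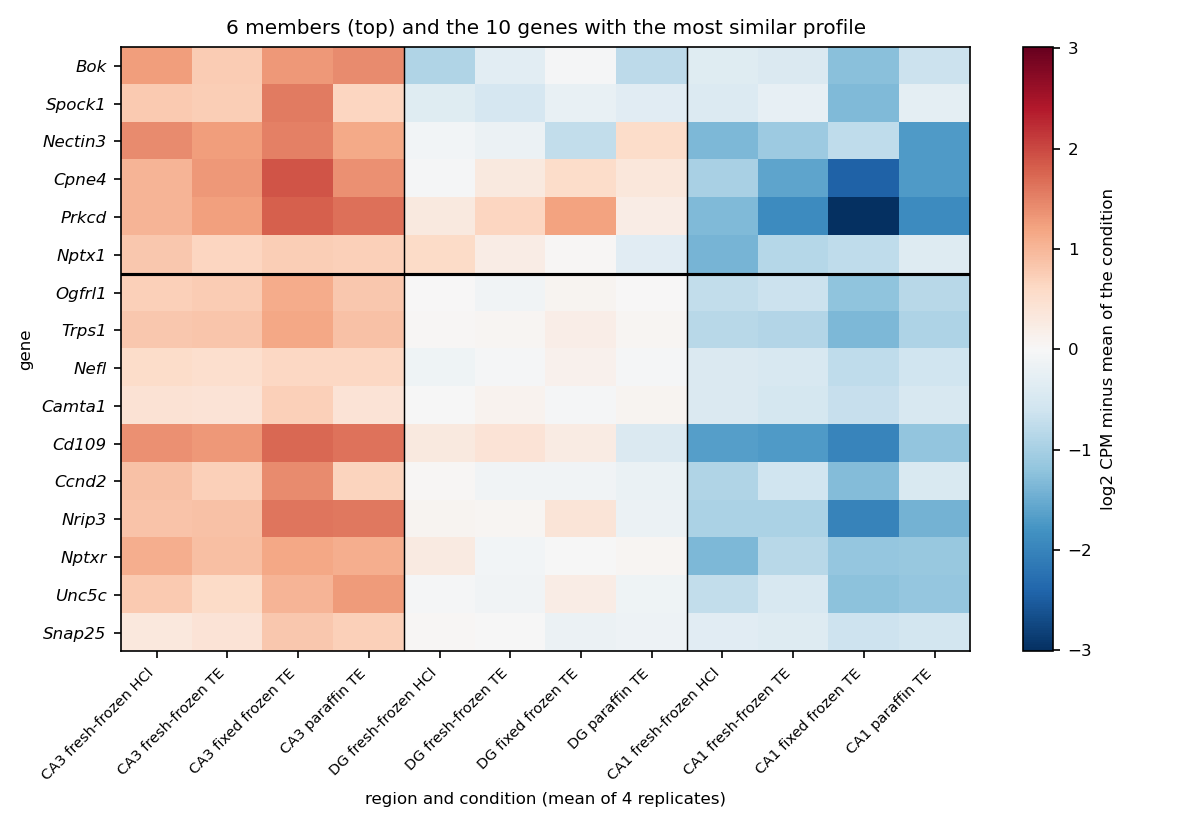
Log2 CPM minus the mean of its condition (colour) for 6 members and the 10 most similar other genes (rows) over the 12 means of region and condition (columns). All rows are highest in CA3. Most are lowest in CA1, but DG has the lower mean for Bok in HCl and paraffin sections and for Spock1 in TE and paraffin sections, and the 10 genes have r between 0.964 (Snap25) and 0.994 (Ogfrl1) with the mean of the members.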

How the data were processed

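PIC libraries made with the CEL-seq2 chemistry were sequenced from 3 regions in 4 histological conditions. The authors deposited whole-number UMI counts per gene, without normalization, for 32546 genes in 48 replicates, and all 48 columns were used. Per the submitters' processing notes and the paper's methods, barcodes and UMIs of 6 bases (4096 different UMIs) were extracted with UMI-tools 1.0.0, reads were aligned to GRCm38 with HISAT2 2.1.0 and assigned with featureCounts 1.6.4, and the authors called genes with DESeq2 1.20.0. The annotation release behind the counts is not given in the sources used here. GENCODE M21, used for positions, held 32530 of the identifiers. A table of barcodes was not used. The largest count of a member was 828.

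Regions were compared within a condition on 8 replicates with edgeR 4.0.16's quasi-likelihood test with TMM scaling. Genes with a sum of 10 or more UMIs entered the fit, p-values were adjusted by Benjamini-Hochberg over all of them, and 0.05 was the threshold for a call. For conditions, 24 replicates were fitted with a region term, and an interaction term tested region effects between conditions. Standard errors were derived from the test, as the absolute log2 fold change divided by the square root of its F statistic. A positive fold change means a higher level in the group named first. The scripts were tested on simulated data. Exact permutation tests on CPM were two-sided. R 4.3.3 ran DESeq2 1.42.0 and limma 3.58.1, and Python 3.11.15 ran scipy 1.17.1, pandas 2.3.3, matplotlib 3.10.9 and numpy 2.4.6.

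Alternatives were DESeq2, its size factors within edgeR, filterByExpr, all genes unfiltered, the third region in the fit (for conditions, CA3 replicates alone), the replicate number as a block, thinning to 35932 UMIs, leaving out each replicate, TMM-scaled CPM and Spearman's rho. Whether replicate numbers pair the samples was checked by the correlation, across genes averaging 5 UMIs or more, of deviations from the library mean (pseudocount 10 CPM). Correlations of same-numbered replicates ranged from 0.00104 to 0.433 and were over 0.1 in every pair in 4 of 12 comparisons, which were CA3 with DG in HCl sections and all 3 in TE sections.

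Genes named are the 8 members, further CA3 genes called over DG in at least 3 of 4 conditions, the 10 genes most like the mean member profile (log2 CPM with a prior count of 2, at least 10 UMIs in each condition) and the 3 most like each member, of which 1 gene is not reported here. Members and lists were chosen with earlier results of these data known. Intervals and limits of a count of 0 (3 UMIs) cover counting error only.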

Additional observations from a re-analysis of the deposited data

Results flagged for a closer look

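In 4 of 70 groups of 4 replicates with at least 10 UMIs, 1 replicate stood apart from the others by Dixon's test of the gap to its neighbour against the range of the group, at the 95% level. Chance alone marks about 1 in 20 groups. Nectin3 in CA3 of HCl sections was at 319.7 CPM in replicate 3 and at 238 to 252 CPM in the others, and in CA1 of HCl sections at 15.7 CPM in replicate 4 and 41.0 to 42.6 CPM in the others. Prkcd in CA3 of HCl sections was at 66.5 CPM in replicate 1 and 94.4 to 98.5 CPM in the others. Spock1 in CA1 of TE sections was at 203 CPM in replicate 2 and 310.3 to 317 CPM in the others.

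The log2 fold change of Spock1 in CA3 over CA1 differed between fixed frozen and TE sections by 1.76 in edgeR's interaction test (adjusted p = 0.000467, Benjamini-Hochberg). Without replicate 1 it was 1.43 (adjusted p = 0.0688).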

How the results depend on the processing

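Settings are given as counts of members called, and counts equal or close to the reported ones are left out. The shares of all genes called under the same settings are not given here. A changed count therefore does not tell whether the members differed from other genes. The thinning was 1 random draw. Thinning all replicates to 35932 UMIs gave 2, 1 and 3 for CA3 over DG in HCl, TE and fixed frozen sections, 3 and 3 for CA3 over CA1 in HCl and TE sections, 1, 2 and 0 for CA1 over DG in HCl, TE and paraffin sections, 2, 0 and 1 for fixed over fresh TE, HCl over TE and paraffin over fixed sections, and 0 for the difference of Spock1 between fixed and TE sections. It also turned the sign of Nptx1 in CA3 over DG of HCl sections (-0.046), Prkcd in CA3 over DG of TE sections (-0.015) and Nptx1 in HCl over TE (0.024). With TMM-scaled totals, CA3 and DG overlapped for Nptx1 in fixed frozen sections and no longer overlapped for Nectin3 in paraffin sections. DESeq2 gave 1 for CA3 over DG and 0 for CA1 over DG in paraffin sections, and 1 for paraffin over fixed sections. No filter gave 1 for CA3 over DG in paraffin sections and 1 for paraffin over fixed sections. With filterByExpr the counts were 1 for CA3 over CA1 in paraffin sections, 2 and 0 for CA1 over DG in fixed frozen and paraffin sections, and 1 for paraffin over fixed sections. CA3 replicates alone gave 2, 1 and 1 for fixed over fresh TE, HCl over TE and paraffin over fixed sections. Thinning leaves fewer UMIs, filterByExpr fewer genes and CA3 alone fewer samples by construction. The cause was not tested for DESeq2 and for no filter. The 1 member called for paraffin over fixed sections with DESeq2, filterByExpr and thinning was Nptx1, so that 0 of the 2 reported calls, Nectin3 and Cpne4, held there. Likewise 0 of the 3 reported calls for HCl over TE held within CA3 alone, where Cpne4 was called.

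With the replicate number as a block, 5 members were called in CA3 over DG of paraffin sections and 5 in HCl over TE. Same-numbered replicates of CA3 and DG in paraffin sections had correlations of 0.0355 to 0.253, with 3 pairs over 0.1. Whether the numbers pair replicates of HCl with those of TE sections was not checked. In the comparisons of regions where every same-numbered pair was over 0.1, the block changed the call of Prkcd (CA3 over DG) and Iyd (CA3 over CA1) in TE sections and no other call of a member.

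Leaving out single replicates gave 0 to 3 members for CA3 over DG and 0 to 1 for CA1 over DG in paraffin sections, 1 to 2 for paraffin over fixed sections, and 0 to 1 for the difference of CA3 over CA1 between HCl or fixed frozen and TE sections. The lowest count for CA3 over DG in paraffin sections was without DG replicate 2. The smallest total, 35932 UMIs, was that of a paraffin replicate. At this depth HCl, TE, fixed frozen and paraffin sections gave 2, 1, 3 and 2 calls for CA3 over DG. The part of depth in the counts of calls was not tested.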
